A study of Mus musculus with 2 samples.

Results

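The insulin-like growth factor (IGF) genes described here are 10 of the 32287 features counted in the GFP+ library: the ligand genes Igf1 and Igf2, the receptor genes Igf1r and Igf2r, and the binding protein genes Igfbp2, Igfbp3, Igfbp4, Igfbp5, Igfbp6 and Igfbp7. They were taken by name. The library was made from tibialis anterior and gastrocnemius muscle labelled WT, from the S100GFPtg line without the Sod1 deletion that other groups of the study carried, 7 days after the sciatic nerve was crushed, at a labelled age of 2 months. In this line green fluorescent protein is driven by the S100B promoter to make Schwann cells visible. The study also found GFP+ clusters of other cells, with Gfp transcripts and hardly any S100b. Cells were sorted on the reporter, and those with GFP gave 1 droplet library, in which the 3' ends of transcripts were counted. Only this library was analysed here, so there is no uninjured muscle and no replicate. No p-values are given, and every interval covers counting error only.

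IGF1 and IGF2 are secreted peptides that bind the tyrosine kinase receptor encoded by Igf1r. The receptor encoded by Igf2r, the cation-independent mannose 6-phosphate receptor, takes IGF2 up for breakdown and sorts lysosomal enzymes. In extracellular fluid most of the peptide is held by IGF binding proteins, which carry it, keep it from the receptor or store it at the matrix. Secreted proteases such as PAPP-A cut some of these proteins and free the ligand. In muscle, IGF1 supports growth and repair of fibres and the survival and regrowth of motor axons, and macrophages and fibroblasts are known sources of it.

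Cell classes were set by marker genes among barcodes with at least 5000 unique molecular identifiers (UMIs), of which there were 8894 among 36400. After a filter on genes and mitochondrial counts 8701 were kept, and 6394 of them fell into one of 18 classes. A further 1047 carried markers of no single lineage and 1260 belonged to a lineage but to none of its subsets. The myeloid classes were 2431 Lyve1/Folr2 macrophages, 1155 MHC II/C1q macrophages, 412 Gpnmb/Fabp5 macrophages, 483 Ly6c2/Chil3 monocytes, 214 Xcr1/Clec9a and 175 Cd209a/Flt3 dendritic cells. The stromal classes were 340 Pi16/Dpp4, 238 Smoc2/Cxcl14, 232 Dkk2/Bmper and 74 Gdf10/Inmt fibroblasts and 237 tenocytes. Outside these lineages stood 60 Schwann cells and 227 satellite cells, the stem cells of muscle fibres. These 13 classes held at least 50 cells each, and levels are ordered among them unless a smaller class is named, with median depths from 8277 UMIs in Schwann cells to 17987.5 in Pi16/Dpp4 fibroblasts. The names stand for marker gates only. The markers named next set those gates, so finding them is no check on the names. All 10 Schwann cell markers were found in the Schwann cells, among them Sox10 at 259 UMIs per 1000000 UMIs of the class (CPM), and 8 of 9 satellite cell markers in the satellite cells, where Myog, a gene of muscle differentiation, had no UMI. Summed over its 9 genes, the stromal marker list stood at 0.282% of its fibroblast level in the myeloid subsets, at 3.24% in Schwann cells and at 2.09% in satellite cells. The gates held this list under a limit in other lineages and over a minimum in stromal cells. Its shares are thus partly set by the gates and can understate RNA of other cells in a droplet. They are given below for scale only.

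The 10 genes lie on 7 chromosomes of the GRCm39 assembly, and 2 pairs of binding protein genes are neighbours. Igfbp2 (chr1:72863606-72891634, plus strand) and Igfbp5 (chr1:72897091-72914043, minus strand) are 5456 bases apart and end towards each other. Igfbp3 (chr11:7156086-7164179, minus strand) lies 3539 bases from Igfbp1, which had 0 UMIs in the whole library. Igf1 spans chr10:87693642-87772904 on the plus strand, and Igf2 spans chr7:142204503-142220694 on the minus strand. The promoter sequences of 4 members are shown because these genes carry the contrasts described below. Igf1 and Igfbp4 were the ligand and the binding protein found in both macrophages and fibroblasts, and Igfbp5 and Igfbp7 were opposed among fibroblasts and in Schwann cells. Each is the run of 250 bases before the gene start in RefSeq (assembly GRCm38.p6), 5′ to 3′ on the strand of the gene, with motif matches in capitals. Igf1 is taken from chr10:87860861-87861110 (plus), Igfbp4 from chr11:99040994-99041243 (plus), Igfbp5 from chr1:72874866-72875115 (minus) and Igfbp7 from chr5:77408046-77408295 (minus).
Igf1: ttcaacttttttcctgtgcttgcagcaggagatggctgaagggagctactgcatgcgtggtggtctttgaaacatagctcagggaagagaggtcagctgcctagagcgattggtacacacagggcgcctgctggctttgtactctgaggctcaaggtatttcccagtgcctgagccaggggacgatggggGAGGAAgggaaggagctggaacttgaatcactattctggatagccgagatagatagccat
Igfbp4: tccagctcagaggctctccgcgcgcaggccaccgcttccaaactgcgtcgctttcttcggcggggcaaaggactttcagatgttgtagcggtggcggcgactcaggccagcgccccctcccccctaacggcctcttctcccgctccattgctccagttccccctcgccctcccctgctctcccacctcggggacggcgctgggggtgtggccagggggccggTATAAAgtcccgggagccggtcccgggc
Igfbp5: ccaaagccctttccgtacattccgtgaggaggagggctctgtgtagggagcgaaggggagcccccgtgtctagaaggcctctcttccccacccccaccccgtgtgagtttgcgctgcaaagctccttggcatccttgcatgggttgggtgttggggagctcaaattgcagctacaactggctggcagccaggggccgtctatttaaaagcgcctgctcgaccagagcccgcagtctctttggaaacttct
Igfbp7: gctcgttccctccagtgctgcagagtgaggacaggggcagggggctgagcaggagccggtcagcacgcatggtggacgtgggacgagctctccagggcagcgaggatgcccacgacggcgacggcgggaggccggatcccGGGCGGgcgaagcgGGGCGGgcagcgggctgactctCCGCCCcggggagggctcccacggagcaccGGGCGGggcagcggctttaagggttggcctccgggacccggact
Motifs were searched on both strands. TATAAA, the core of a TATA box, was present in the Igfbp4 promoter, beginning 28 bases before the start, and in 12.4% of 32851 promoters of the same length. GAGGAA, the core bound by the myeloid factor PU.1, was present in that of Igf1, 60 bases before the start, and in 23.3% of promoters. GGGCGG, a GC box, occurred 4 times in that of Igfbp7 and at least once in 32.7% of promoters. CACGTG, an E box, was in none of the 4 windows and in 6.02% of promoters. No match of any of the 4 motifs was found in the Igfbp5 window. These matches describe the sequence and were not related to the levels.

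Igf1 was a gene of fibroblasts and macrophages and was close to absent from Schwann cells and satellite cells. Its level was highest in Dkk2/Bmper fibroblasts, at 969 CPM (95% interval 937 to 1001). Smoc2/Cxcl14, Gdf10/Inmt and Pi16/Dpp4 fibroblasts followed at 768, 688 and 631 CPM, with the 25 Apod/Tenm2/Col28a1 fibroblasts at 881 CPM (791 to 979), and the intervals of the Gdf10/Inmt class overlapped those of both neighbours in this order. Tenocytes held 359.7 CPM, 47.4% of the pooled fibroblast level of 759 CPM. Among myeloid cells, Lyve1/Folr2 macrophages held 240.3 CPM (234.8 to 245.8), Gpnmb/Fabp5 macrophages 152 CPM (144 to 161) and MHC II/C1q macrophages 60.8 CPM (56.5 to 65.4). Monocytes held 8.80 CPM, Cd209a/Flt3 dendritic cells 6.79 CPM and Xcr1/Clec9a dendritic cells 2.48 CPM. In satellite cells 10 UMIs gave 4.46 CPM, 0.587% of the fibroblast level, and in Schwann cells 1 UMI gave 1.82 CPM, 0.24% of it. Both shares lie below those of the stromal marker list in the same cells, where the gates held that list under a limit. With no limit on other lineages the Schwann cell level of Igf1 was 52.0 CPM.

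**Figure D1:**
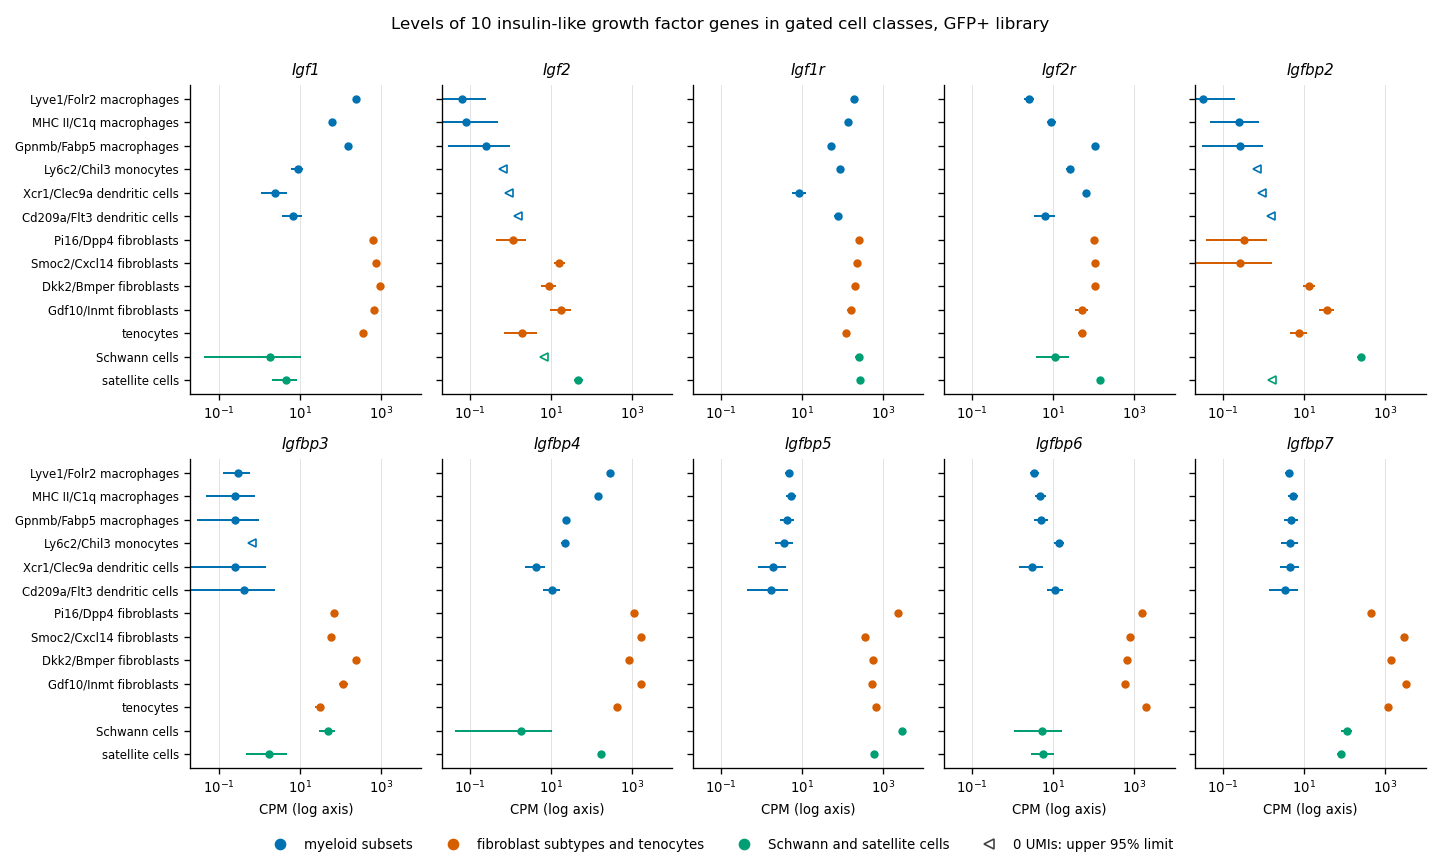
Level of each of the 10 genes (CPM, log axis) in the 13 classes of at least 50 cells; points are CPM of summed UMIs, bars exact Poisson 95% intervals (cut where they pass the left end of the axis), and open triangles the upper limit where a class had 0 UMIs. Igf1 and Igfbp4 reach into the macrophage classes, where Igfbp3, Igfbp5, Igfbp6 and Igfbp7 are at 5.44 CPM or less, and by summed UMIs Igfbp2 and Igfbp5 are highest in Schwann cells, at 255 and 2933 CPM, though the median cell holds more Igfbp5 in Pi16/Dpp4 fibroblasts.

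The share of cells with an Igf1 UMI was likewise highest in fibroblasts, tenocytes and macrophages among the 13 classes, though its order differed in places from that of the levels. Thinned to 1000 UMIs a cell, 50.9% of Dkk2/Bmper fibroblasts (44.2 to 57.5%, exact binomial interval) and 20.2% of Lyve1/Folr2 macrophages (18.6 to 21.8%) held one, against 0.414% of monocytes and 0 of 60 Schwann cells, which allows up to 5.96%. Without thinning the shares were 96.1%, 83.3%, 6.63% and 1.67%. The Lyve1/Folr2 macrophages were thus broadly positive: their cell median was 197 CPM, with quartiles of 89.1 and 353, and the 122 cells with the most Igf1 UMIs held 17.9% of those UMIs. In MHC II/C1q macrophages the median was 0 CPM, and 58 cells held 40% of the UMIs.

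Of 7 members with enough UMIs, 5 set Lyve1/Folr2 macrophages apart from monocytes by more than 2-fold, counted when the whole 95% interval of the log2 ratio lay past 1 in size. A member low in one class can reach the minimum of 50 UMIs through the other class alone, which favours a difference, so the count is also given for members with 50 UMIs in each class. Here that was 4 of 4. No share over all features was taken with this stricter minimum, here or below, so such counts have no matching background. Over all 12272 features with at least 50 UMIs in both classes together, 20.5% passed that rule, 15% higher and 5.49% lower. Igf1 was 27.3-fold higher in the macrophages (log2 ratio 4.77, 4.36 to 5.21), Igfbp4 13.1-fold higher (3.71, 3.45 to 3.98) and Igf1r 2.31-fold higher (1.21, 1.07 to 1.35). Among barcodes with at least 10000 UMIs the Igf1r ratio was 1.15 (0.99 to 1.31) and no longer passed. Igf2r and Igfbp6 were lower, with log2 ratios of -3.37 (-3.78 to -2.96) and -2.02 (-2.46 to -1.58). The median log2 ratio was 0.38 over these members and 0.35 over all features. Igfbp6 stood at 13.9 CPM in monocytes and 3.43 CPM in Lyve1/Folr2 macrophages, or 1.28% and 0.314% of the fibroblast level, while the stromal marker list stood at 0.208% and 0.311% in the same cells. How much of the monocyte value came from RNA of other cells was not tested.

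Within macrophages the receptors went opposite ways. Between Lyve1/Folr2 and MHC II/C1q macrophages 2 of 7 members passed, where 5.56% of 12637 features did (2.96% higher, 2.6% lower): Igf1, higher in the Lyve1/Folr2 class (1.98, 1.87 to 2.09), and Igf2r, lower in it (-1.81, -2.24 to -1.38). Igfbp4 came close, at 0.97 (0.89 to 1.04). Between Gpnmb/Fabp5 and Lyve1/Folr2 macrophages 3 of 7 passed, beside 21.3% of 12291 features (5.04% higher, 16.3% lower). With 50 UMIs in each class it was 3 of 4. Igf2r was 41.8-fold higher in the Gpnmb/Fabp5 class (5.39, 5.05 to 5.74), whereas Igfbp4 (-3.61, -3.83 to -3.41) and Igf1r (-1.88, -2.03 to -1.73) were lower. Igf1 differed by -0.66 (-0.75 to -0.57) and did not pass. Against monocytes, 2 of 7 members passed in Gpnmb/Fabp5 macrophages, with 7.69% of 9186 features (3.53% higher, 4.16% lower): Igf1 at 17.3-fold (4.11, 3.70 to 4.56) and Igf2r at 4.06-fold (2.02, 1.77 to 2.28). With 50 UMIs in each class it was 1 of 3, since monocytes held 48 Igf1 UMIs. The Gpnmb/Fabp5 macrophages, marked by genes of lipid handling and by Spp1, thus held Igf1 with much Igf2r and little Igfbp4, and the Lyve1/Folr2 macrophages held Igf1 with much Igfbp4 and Igf1r.

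Ligand and binding protein were found in the same macrophages. Of the 2431 Lyve1/Folr2 macrophages 2025 held an Igf1 UMI, 2229 an Igfbp4 UMI and 1870 both. Igfbp4 stood at 295 CPM in those with Igf1 and at 282 CPM in those without, at median depths of 12183 and 10547.5 UMIs, so its level hardly differed with Igf1. Of the 412 Gpnmb/Fabp5 macrophages 242 held Igf1, 266 held Igf2r and 160 both, and Igf2r was at 106 CPM with Igf1 and 116 CPM without it. Within either class, therefore, the 2 genes of each pair were not set apart by cell.

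Pooled levels along the marker axes describe the same differences. The marker lists that order the barcodes also set the classes, so this is no separate support. The 4642 C1q-positive myeloid barcodes were ordered by the UMIs of the 6 Lyve1/Folr2 markers per 10000 UMIs of the barcode. From barcodes with no such UMI to those with 32 or more, Igf1 went from 48.3 to 263 CPM, Igfbp4 from 60.2 to 317 CPM and Igf1r from 82.2 to 183 CPM, while Igf2r went from 34.2 to 1.2 CPM. The course was not strictly even: Igf1 was lower in the third bin, at 83.1 CPM, than in the second, and Igf1r was 201 CPM in the bin before the last. Along the 6 Gpnmb/Fabp5 markers Igf2r stayed between 3.03 and 3.94 CPM up to 16 marker UMIs per 10000 and then stood at 21.2, 60.4, 82.5 and 90.6 CPM in the last 4 bins. Igfbp4 went from 270.0 CPM in the second bin to 14.1 CPM in the last, and Igf1 moved least, between 121 and 199 CPM. Depth differed along this axis, with a median of 7955 UMIs in the first bin and 21497 in the last.

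**Figure D2:**
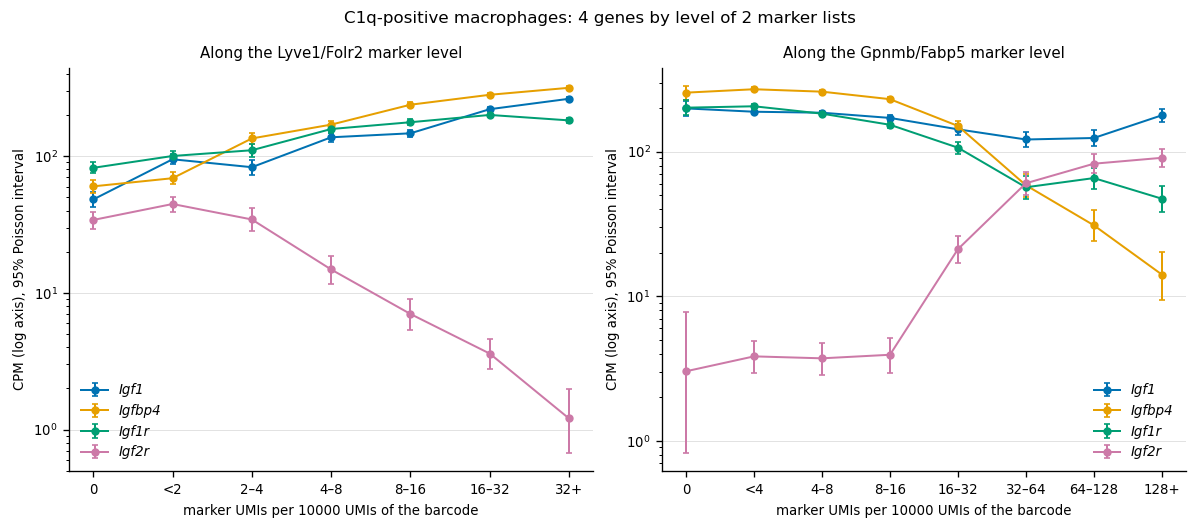
Levels of 4 genes (CPM, log axis, with exact Poisson 95% intervals) in C1q-positive myeloid barcodes binned by marker UMIs per 10000 UMIs, for the Lyve1/Folr2 list on the left and the Gpnmb/Fabp5 list on the right. Igf2r falls from 34.2 to 1.2 CPM on the left and rises from 3.03 to 90.6 CPM on the right, and Igfbp4 takes the opposite course.

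Igf2, the imprinted fetal ligand, was low in every class, with 748 UMIs in the library against 48320 of Igf1. Satellite cells held 106 UMIs, 47.2 CPM (38.7 to 57.1), the highest of the 13 classes. Gdf10/Inmt and Smoc2/Cxcl14 fibroblasts followed at 17.6 and 16.3 CPM, Dkk2/Bmper fibroblasts at 8.74 CPM, tenocytes at 1.98 CPM and Pi16/Dpp4 fibroblasts at 1.13 CPM. A class of only 25 Apod/Tenm2/Col28a1 fibroblasts held 58.2 CPM (36.9 to 87.4), an interval that overlaps that of satellite cells. It lay in 4 of the 25 cells, 2 of which held 87.0% of it, and by the mean over cells this class was at 40.8 CPM and satellite cells at 47.1 CPM. Schwann cells had 0 UMIs, so that the satellite cell level was at least 8.65-fold higher, taking 3 UMIs as the limit of a count of 0. All 4894 cells of the myeloid subsets held 5 UMIs together. In satellite cells Igf2 was found in 22% of cells without thinning and in 3.96% with it, and 12 of the 227 cells held 53.8% of its UMIs. Of the 50 satellite cells with Igf2, 44 also held Pax7, the marker of quiescent and activated satellite cells, and 19 held Myod1, beside 186 and 78 of all 227. H19, the noncoding gene next to Igf2 that is imprinted in the opposite direction, was at 159.5 CPM in the Apod/Tenm2/Col28a1 class, which was also high in Igf2 by summed UMIs, but differed elsewhere: 95.8 CPM in Pi16/Dpp4 fibroblasts, 45.2 CPM in Smoc2/Cxcl14 fibroblasts, 5.79 CPM in satellite cells and 0 UMIs in Gdf10/Inmt fibroblasts and Schwann cells. Satellite cells with Igf2 held 19.8 CPM of H19 and those without held 1.73 CPM, from 13 UMIs in all.

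Igf1r was the most evenly spread member. Its level was 272 CPM (251 to 295) in satellite cells, 262 CPM (221 to 309) in Schwann cells and 255 CPM (243 to 268) in Pi16/Dpp4 fibroblasts, and these 3 intervals overlap. It was the one member of 10 that did not pass the 2-fold rule between pooled fibroblasts and pooled myeloid cells, with a log2 ratio of 0.72 (0.66 to 0.77). Gpnmb/Fabp5 macrophages at 53.1 CPM and Xcr1/Clec9a dendritic cells at 8.69 CPM were the lowest classes. Schwann cells and satellite cells, which held almost no Igf1, thus had Igf1r at levels like those of the fibroblasts that held it, and between both of them the log2 ratio was -0.05 (-0.33 to 0.21). Igf1r is a long gene, and the default settings named in the study's methods include reads from introns, whose part in its level was not tested. Among barcodes with at least 10000 UMIs the level in Schwann cells was 173 CPM, and the sign of the ratio between Schwann and satellite cells changed in 4 other settings. Thinned to 1000 UMIs, 13.3% of Schwann cells (5.94 to 24.6%) and 22.9% of satellite cells (17.6 to 28.9%) held an Igf1r UMI, against 0.467% of Xcr1/Clec9a dendritic cells, which have a median depth of 17723 UMIs.

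Igf2r varied more. Satellite cells led with 147 CPM (131 to 163). Smoc2/Cxcl14 fibroblasts at 111 CPM, Gpnmb/Fabp5 macrophages at 109 CPM, Dkk2/Bmper fibroblasts at 108 CPM and Pi16/Dpp4 fibroblasts at 102 CPM followed, with intervals that overlap one another but not that of satellite cells. Schwann cells held 6 UMIs, 10.9 CPM (4.01 to 23.8), and Lyve1/Folr2 macrophages 2.61 CPM (2.07 to 3.25), the lowest of all 13 classes. The gene most like it across these classes was Airn, its imprinted antisense neighbour, with a Pearson r of 0.96 over 13 classes and 9778 features. Airn (chr17:12960198-13079299, plus strand) overlaps Igf2r (chr17:12901293-12988614, minus strand) by 28417 bases. Its level was 563 CPM in satellite cells, 494 CPM in pooled fibroblasts and 182 CPM in Gpnmb/Fabp5 macrophages, but 6.89 CPM in Lyve1/Folr2 macrophages and 25.5 CPM in Schwann cells. The default settings of Cell Ranger, which the study's methods name, are meant to count by strand. Whether reads of the shared stretch were kept apart in this matrix was not tested.

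The binding proteins divided fibroblasts from myeloid cells sharply. Between pooled fibroblasts and pooled myeloid subsets 9 of 10 members passed the 2-fold rule, all higher in fibroblasts, beside 37.3% of 14928 features (20.6% higher, 16.6% lower), or 6 of 7 with 50 UMIs in each class. The median log2 ratio was 6.37 over the members and 0.06 over all features. For Igfbp3, Igfbp5, Igfbp6 and Igfbp7 the ratios were 441-fold, 288-fold, 215-fold and 340-fold, which leaves myeloid levels at 0.227%, 0.347%, 0.466% and 0.294% of those in fibroblasts. The stromal marker list stood at 0.282% in the same cells, above Igfbp3 and below Igfbp5, Igfbp6 and Igfbp7. How much of these myeloid values came from RNA of other cells was not tested. Igfbp4 was at 14.5% of the fibroblast level and Igf1 at 19.7%. Both are higher than the share of that list, which the gates held under a limit in these cells. Of the binding protein UMIs, 95.8% in Lyve1/Folr2 macrophages and 90.3% in MHC II/C1q macrophages were Igfbp4.

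**Figure D3:**
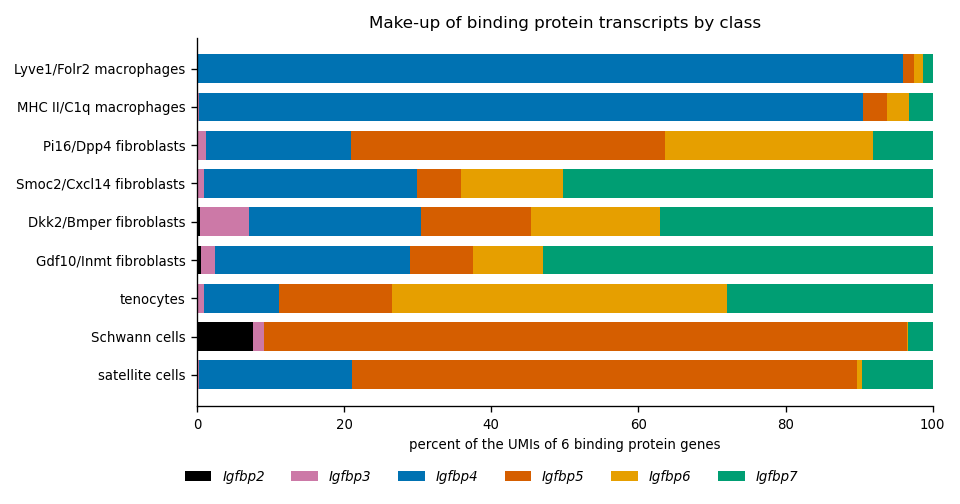
Share of each binding protein gene among the UMIs of all 6 (percent), in the classes with at least 1000 such UMIs. Igfbp4 makes up nearly all of it in both macrophage classes, Igfbp5 87.4% in Schwann cells and 68.7% in satellite cells, and the fibroblast subtypes differ mainly in Igfbp5 against Igfbp7.

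Fibroblast subtypes held the same 4 genes in different proportions. Pi16/Dpp4 fibroblasts, found around vessels and in fascia, were rich in Igfbp5 at 2416 CPM (2377 to 2455) and Igfbp6 at 1597 CPM, with Igfbp7 at 459 CPM. Smoc2/Cxcl14 fibroblasts held 352 CPM of Igfbp5, 808 CPM of Igfbp6 and 2957 CPM (2902 to 3013) of Igfbp7, and Gdf10/Inmt fibroblasts resembled them with 536, 596 and 3336 CPM. Igfbp5 therefore made up 42.7% of binding protein UMIs in the Pi16/Dpp4 class and 5.99% in the Smoc2/Cxcl14 class, and Igfbp7 8.12% and 50.3%. Between both classes 3 of 9 members passed, beside 8.21% of 10177 features (4.02% higher, 4.2% lower): Igfbp5 (2.78, 2.70 to 2.86) was higher in Pi16/Dpp4 fibroblasts, and Igfbp7 (-2.69, -2.75 to -2.63) and Igf2 (-3.85, -5.22 to -2.72, on 7 and 61 UMIs) were lower. Without Igf2, which reached the minimum through the Smoc2/Cxcl14 class alone, 2 of 8 passed. Igfbp6 lay at the limit with 0.98 (0.92 to 1.04) and passed with doubled marker minimums. Igfbp4, the inhibitory binding protein that PAPP-A cuts, was high in every subtype, from 864 CPM in Dkk2/Bmper to 1701 CPM in Smoc2/Cxcl14 fibroblasts.

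Dkk2/Bmper fibroblasts stood out by the summed level of Igfbp3, the main carrier of IGFs in serum. Their level of 251 CPM (235 to 267) exceeded the 119 CPM of Gdf10/Inmt, 69.3 CPM of Pi16/Dpp4 and 58.9 CPM of Smoc2/Cxcl14 fibroblasts. Among barcodes with at least 10000 UMIs the Gdf10/Inmt level was 57.5 CPM. Most Dkk2/Bmper cells held none: their median was 0 CPM, 45.3% had a UMI (19.8% after thinning), and 12 of 232 held 47.5% of the UMIs. Against Pi16/Dpp4 fibroblasts 5 of 9 members passed, beside 5.33% of 10160 features (2.88% higher, 2.45% lower). Igfbp3 (1.86, 1.69 to 2.02), Igfbp7 (1.58, 1.52 to 1.65) and Igfbp2 were higher, and Igfbp5 (-2.13, -2.20 to -2.06) and Igfbp6 (-1.29, -1.36 to -1.23) lower. Igfbp2 reached the 50 UMIs needed only through the 49 UMIs of the Dkk2/Bmper class, in 1.29% of its 232 cells, and without it 4 of 8 members passed. Igf1 was higher there as well, by 0.62 (0.55 to 0.68), short of the rule. Among the 3 genes with the pattern most like Igfbp3 was Ntrk2 (r = 0.98 over 13 classes), the receptor for the neurotrophin BDNF, at 383 CPM in Dkk2/Bmper fibroblasts and 0.69 CPM in the myeloid subsets.

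Pooled levels along the marker axis describe the change from Igfbp7 to Igfbp5 as well, again with the marker lists that set the classes. When the 1074 fibroblast barcodes were ordered by the 4 Pi16/Dpp4 markers, Igfbp5 stayed between 402 and 591 CPM up to 16 marker UMIs per 10000 and was 1341 and 3739 CPM in the last 2 bins. Igfbp7 was 2161 CPM with no marker UMI, 1258 CPM at 8 to 16 and 342 CPM at 32 or more. Igfbp6 went from 535 to 1779 CPM and Igfbp3 from 209 to 37.2 CPM, while Igfbp4 stayed between 1006 and 1502 CPM. Igf1 was highest in the middle, at 1093 CPM, and lowest in the last bin, at 399 CPM. Along the Smoc2/Cxcl14 markers the same 2 genes went the other way, Igfbp5 from 3405 to 258 CPM and Igfbp7 from 382 to 3587 CPM. Igfbp3 peaked in the middle of that axis, at 237 CPM, with 38.1 and 38.5 CPM at its ends. Bins pool cells, so whether single cells hold levels in between was not tested, here or in macrophages.

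**Figure D4:**
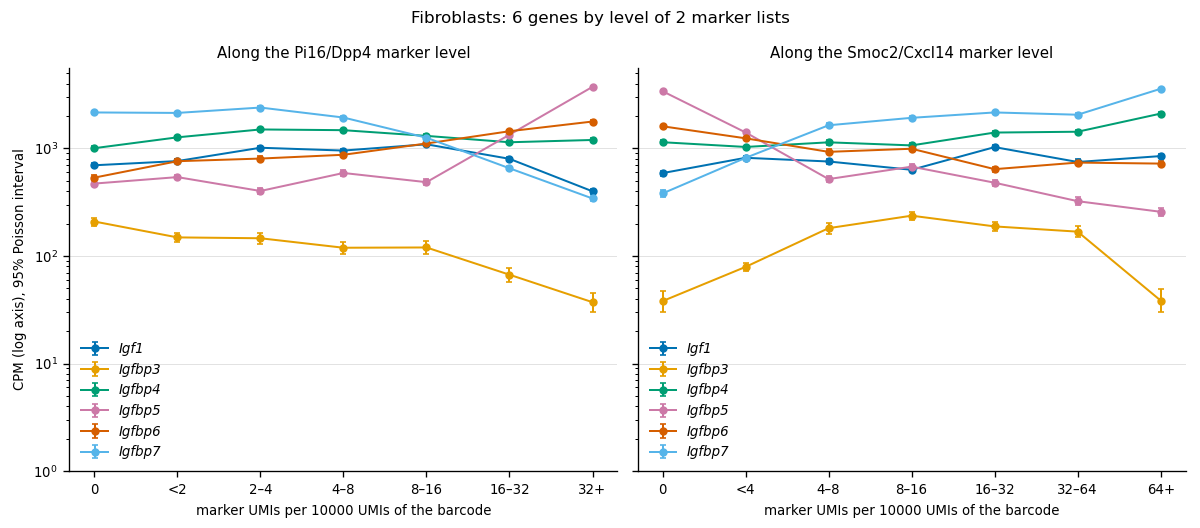
Levels of 6 genes (CPM, log axis, with exact Poisson 95% intervals) in fibroblast barcodes binned by marker UMIs per 10000 UMIs, for the Pi16/Dpp4 list on the left and the Smoc2/Cxcl14 list on the right. On the left Igfbp5 rises to 3739 CPM where Igfbp7 falls to 342 CPM, and on the right the pair crosses the other way.

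In tenocytes, the tendon fibroblasts, the leading binding protein was Igfbp6, which binds IGF2 in preference to IGF1. Its level of 1953 CPM (1904 to 2004) was the highest of all classes and made up 45.5% of their binding protein UMIs. The median cell held 1462 CPM, close to the 1412 CPM of Pi16/Dpp4 fibroblasts, with thinned shares of 71.3% and 68.5%. Against pooled fibroblasts the tenocyte level was higher by 0.84 (0.80 to 0.88), short of the 2-fold rule. The rule was passed by 3 of 10 members, beside 12.7% of 11891 features (4.53% higher, 8.2% lower), and all were lower: Igfbp4 (-1.48, -1.56 to -1.40), Igfbp3 (-1.86, -2.18 to -1.56) and Igf2 (-2.23, -3.70 to -1.07, on 6 and 138 UMIs). With 50 UMIs in each class it was 2 of 8. With no limit on the markers of other lineages Igf1 and Igfbp5 passed too, which makes 5. In all, Igf1 newly passed in 4 settings and Igfbp5 in 3, and Igf2 no longer passed in 5.

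In Schwann cells Igfbp5 led the binding proteins and Igfbp2 came next by summed UMIs, a place it lost to Igfbp7 and Igfbp6 with no limit on other lineages (158 against 706 and 199 CPM). Igfbp5, a matrix-bound protein, reached 2933 CPM (2791 to 3080), beside 2416 CPM in Pi16/Dpp4 fibroblasts, and Igfbp2 reached 255 CPM (214 to 301), against 36.4 CPM in Gdf10/Inmt fibroblasts and 38.7 CPM in the 32 mural cells. Igfbp4 was at 1 UMI and Igfbp6 at 3 UMIs. Igfbp3 was at 27 UMIs, 49.2 CPM or 43.7% of the fibroblast level, with a log2 ratio of -1.20 (-1.80 to -0.65) that passed only with no limit on other lineages and with the mean over cells. Igfbp7 stood at 113 CPM, 7.36% of the fibroblast level, beside 3.24% for the stromal marker list. Against pooled fibroblasts 7 of 10 members passed, beside 17.3% of 11536 features (8.88% higher, 8.39% lower), or 3 of 4 with 50 UMIs in each class. Igfbp2 was 45.5-fold higher (5.51, 5.11 to 5.92) and Igfbp5 2.28-fold higher (1.19, 1.12 to 1.26). Igf1, Igf2r, Igfbp4, Igfbp6 and Igfbp7 were lower, from -3.22 for Igf2r to -9.40 for Igfbp4, where 1 UMI leaves an interval of -14.70 to -6.92. With no limit on other lineages Igf1 stood at 52.0 CPM and Igfbp4 at 104 CPM in Schwann cells, and the Igfbp7 ratio was -1.05 (-1.15 to -0.94) and no longer passed. Taken as the mean over cells, the Igfbp5 ratio was 1.02 (0.95 to 1.10) and no longer passed. The 36.4 CPM of Igfbp2 in Gdf10/Inmt fibroblasts lay in 4.05% of the cells and went to 0 when the limit on other lineages was halved.

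Both genes varied between Schwann cells. The median cell held 547 CPM of Igfbp5, with quartiles of 0 and 3228, 38 of 60 cells had a UMI, and 3 cells held 34.6% of its UMIs. In Pi16/Dpp4 fibroblasts the median was 1265 CPM, the mean over cells 2486 CPM against 2511 CPM in Schwann cells, and the thinned share 59.7% (54.3 to 65.0%), so that Schwann cells led by summed UMIs but not by the median cell or the share of cells. Igfbp2 was found in 14 of 60 cells and Igfbp7 in 18. Of the 14 cells, 3 held 53.6% of the Igfbp2 UMIs. Thinned to 1000 UMIs, 46.7% of Schwann cells (33.7 to 60.0%) held Igfbp5 and 10% (3.76 to 20.5%) held Igfbp2, against 0.617% and 0% of the Lyve1/Folr2 macrophages, with median depths of 8277 and 11922 UMIs. Of the 14 cells with Igfbp2, 5 also had Igfbp5 and 13 had Stc2, which was present in 45 of all 60. Cells with and without an Igfbp5 UMI had median depths of 8277 and 8286.5 UMIs. Stc2 stood at 1970 CPM in the cells with Igfbp2 and at 974 CPM in those without. Igfbp2 stood at 187 CPM in the cells with Igfbp5 and at 384 CPM in those without. These are counts over few cells of 1 library and describe them only.

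Satellite cells had the same leading binding protein at a lower level. Igfbp5 stood at 586 CPM (555 to 619), 68.7% of binding protein UMIs, with Igfbp4 at 178 CPM and Igfbp7 at 82.0 CPM, while Igfbp2 had 0 UMIs. Against pooled fibroblasts 8 of 10 members passed, beside 20.1% of 11720 features (5.2% higher, 14.9% lower), or 4 of 6 with 50 UMIs in each class. Igf2 was the one that was higher (2.34, 1.96 to 2.72), and Igf1 and the 6 binding proteins were lower, Igfbp2 with 0 UMIs and the others from -1.13 (-1.21 to -1.05) for Igfbp5 to -7.56 (-8.47 to -6.78) for Igfbp6. Igfbp5 no longer passed with stricter marker gates or with the mean over cells. Directly between Schwann cells and satellite cells 5 of 7 members passed, beside 22.2% of 6364 features (12.9% higher, 9.24% lower), but 1 of 3 with 50 UMIs in each class. Igfbp5 was 5-fold higher in Schwann cells (2.32, 2.22 to 2.43), Igfbp2 was at least 191-fold higher, and Igf2, Igf2r (-3.75, -5.20 to -2.61) and Igfbp4 (-6.61, -11.92 to -4.12) were lower. With no limit on other lineages the Igfbp4 ratio was -0.60 (-0.91 to -0.30) and no longer passed. Among satellite cells, those with an Igfbp5 UMI held 97.2 CPM of Myod1, a gene of activated myoblasts, and those without held 232 CPM, in 158 and 69 cells. Pax7 went the other way, at 280 CPM with Igfbp5 and 226 CPM without. Both are markers of the satellite cell gate, which shapes their levels.

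Endothelial and mural cells, with 35 and 32 cells, are given as levels only. By summed UMIs Igfbp7, long known as a gene of vessels, was at 3453 CPM (3258 to 3657) in endothelial cells and at 4308 CPM (4089 to 4536) in mural cells, above every fibroblast subtype except that the endothelial interval overlaps that of Gdf10/Inmt fibroblasts. The median endothelial cell held 2629 CPM, beside 2982 CPM in Gdf10/Inmt and 2614 CPM in Smoc2/Cxcl14 fibroblasts. Igfbp3 was at 157 CPM in endothelial cells, where 2 of the 35 held 81.1% of its UMIs, and had 0 UMIs in mural cells. Igfbp5 was at 1418 CPM in mural cells.

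A list of 21 other genes of the pathway was read the same way. Its counts rest on the minimum summed over both classes. A gene can reach that minimum through either class alone, such as the fibroblasts, and this favours a difference. No count with the minimum met in each class is given for this list. Between pooled fibroblasts and myeloid subsets 16 could be compared, and 11 were higher in fibroblasts and 0 lower, on the background of 20.6% and 16.6% given above. The secreted proteases were among them, with Htra1 at 199 CPM, Htra3 at 312 CPM and Adamts1 at 429 CPM in fibroblasts and at most 2.06 CPM in the pooled myeloid subsets. Pappa, which encodes the protease PAPP-A, was uneven among fibroblasts: 152 CPM (139 to 165) in Dkk2/Bmper, 99.8 CPM in Gdf10/Inmt and 86.1 CPM in Smoc2/Cxcl14, against 8.41 CPM in Pi16/Dpp4 fibroblasts and 3.96 CPM in tenocytes. Between Dkk2/Bmper and Pi16/Dpp4 fibroblasts it differed 18-fold (4.17, 3.76 to 4.61) and was the 1 gene of 14 compared that passed, a count near the 5.33% of all features. Stc2, whose product stanniocalcin 2 binds and blocks PAPP-A, was at 1196 CPM (657 UMIs) in Schwann cells and at 4.46 CPM in satellite cells and 1.42 CPM in pooled fibroblasts. The ratio to fibroblasts was 844-fold (9.72, 9.10 to 10.42), and Stc2 was the 1 of 16 compared genes that was higher in Schwann cells, where 6 were lower, Irs2, Pappa2, Htra1, Htra3, H19 and Lrp1, beside 8.88% higher and 8.39% lower of all features. A count of 1 in 16 is thus near the background, and the value is one of Stc2 and not of the list. Schwann cells also held 60.1 CPM of Pappa, from 33 UMIs, and no Pappa2.

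**Figure D5:**
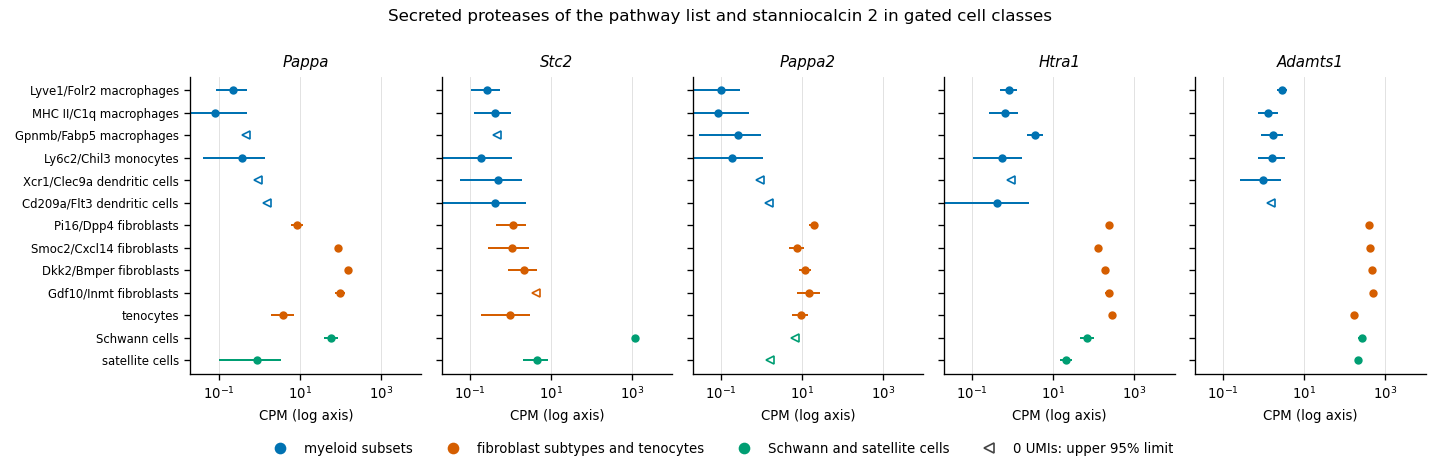
Level (CPM, log axis) of the proteases Pappa, Pappa2, Htra1 and Adamts1 and of Stc2 in the 13 classes, drawn with the same points, bars and triangles as the plot of the 10 genes. Stc2 stands at 1196 CPM in Schwann cells and under 5 CPM in the other 12 classes, and Pappa is highest in Dkk2/Bmper fibroblasts.

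Receptors and adaptors of insulin signalling were on the list as well. Insr, the insulin receptor gene, was at 92.8 CPM in Schwann cells and 16.9 CPM in satellite cells (log2 ratio 2.45, 1.82 to 3.10). Of the 11 listed genes compared between these classes 7 passed, 4 higher and 3 lower in Schwann cells, beside 12.9% and 9.24% of all features. That count rests on the summed minimum, which a gene such as Stc2 reaches through Schwann cells alone, and this favours a difference. Irs1, an adaptor below both receptors, was at 44.7 CPM in pooled fibroblasts and 0.70 CPM in the myeloid subsets, where Irs2 stood at 89.9 CPM. Lrp1, an endocytic receptor also known to bind IGFBP3, was higher in Gpnmb/Fabp5 than in Lyve1/Folr2 macrophages, by 1.41 (1.34 to 1.48), and Insr was lower there, by -2.23 (-2.56 to -1.92).

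Across the 13 classes the members did not form one pattern. Pearson correlations of log2(CPM + 1) are given as a description, over classes that share 1 library and differ in depth. Igf1 went with Igfbp4 (r = 0.87), and Igfbp3 with Igfbp7 (0.94), Igfbp5 (0.86) and Igfbp6 (0.82). Igfbp7 also went with Igfbp6 (0.88) and with Igfbp5 (0.85), although the last pair was opposed among fibroblast subtypes. Of the genes outside the list, Igf1 was most like Man2b2 (0.98), a lysosomal mannosidase, Igfbp6 most like Plpp5 (0.99), Nox4 (0.98) and Twist1 (0.98), and Igfbp7 most like Hlf (0.99), Serpina3n (0.98) and Phldb2 (0.98). The nearest for Igf1r was Ulk1 (0.95) and for Igfbp4 Prxl2c (0.98). Igfbp5 was most like Xrcc5 (0.99), which lies 462978 bases away on the same chromosome and had 63.7 CPM in Schwann cells, 22.3 CPM in fibroblasts and 1.00 CPM in the myeloid subsets. Igf2 and Igfbp2, with 232 and 252 UMIs, were below the 500 UMIs set for this comparison.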

How the data were processed

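Single-cell RNA was measured in muscle cells sorted from S100GFPtg mice. The deposited matrix holds UMI counts per gene and barcode, not normalized, which the authors made with Cell Ranger (version 7.1.0 in the submitters' processing notes, 8.0.1 in the file header) at default settings. For the genome, GRCm38 and GRCm39 are each named in the study's methods. The study's methods pooled male animals while the series text speaks of 1 mouse, so how many animals stand behind the library is unclear. The library held 170648616 UMIs, a median of 2130 per barcode. Counts of the GFP- library were not used here. The 2 libraries list 372 barcodes in common, 62 of them in a class.

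A barcode was kept if it held at least 5000 UMIs and more than 200 genes, with a mitochondrial share under 10%. A barcode joined a lineage when its marker UMIs per 10000 UMIs passed a minimum over several marker genes and the markers of other lineages stayed under a limit, which also left out doublets with 2 lineages. No doublet caller was run. Within a lineage the subset with the highest score relative to its minimum was taken when it led the next by 1.5 times. UMIs were summed per class, divided by all UMIs of the class and given as CPM with exact Poisson 95% intervals. Since 3' tags are counted per molecule, CPM were not divided by gene length. Shares were taken after thinning to 1000 UMIs, with exact binomial intervals. Log2 ratios carry exact conditional intervals and use features with at least 50 UMIs in the pair. A ratio against a class at 0 was taken against 3 UMIs.

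The members, the gene lists, the gates and the alternatives were chosen with earlier results of these data known, and the minimums and limits of the gates were set after the marker counts were seen. Named genes were the members, the pathway list and, for members with at least 500 UMIs, the 3 features with the highest Pearson r of log2(CPM + 1), gate markers left out. Positions are from GENCODE M39 (GRCm39), promoters from RefSeq (GRCm38.p6). The steps were run on simulated counts with known answers, drawn with counting error only. Cells for the gates were drawn from the summed profiles of the gated classes, so this checks the code and not the class names. Python 3.11.15, numpy 2.4.6, scipy 1.17.1 and pandas 2.3.3 were used.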

Additional observations from a re-analysis of the deposited data

How the results depend on the processing

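No paired analysis was possible because 1 library was analysed and no result comes from a test over samples. Minimum depths of 3000 and 10000 UMIs, stricter filters (under 5% mitochondrial and more than 500 genes), doubled marker minimums, the limit on other lineages halved or removed, the mean over cells and, chosen after seeing the data, the removal of barcodes listed for both libraries were tried, and for shares thinning to 3000 UMIs or none. No ratio past 2-fold turned its direction. Among the ratios that did not pass, 10 changed sign, in 23 values, all within 0.44 of 0 on the log2 scale as reported. Of the counts of members past 2-fold, 87 stayed within 1.5 times and 1 did not, tenocytes against fibroblasts, 5 members with no limit on other lineages. Over 89 ratios, 682 values kept their side of the rule, 14 newly passed it and 11 no longer did. Of the levels, 870 values stayed within their interval and 170 moved. With no limit on other lineages Schwann cells showed Igf1 at 52.0 CPM, Igf2r at 29.7 CPM, Igfbp4 at 104 CPM, Igfbp6 at 199 CPM and Igfbp7 at 706 CPM, and their Igfbp7 ratio to fibroblasts (-1.05) and Igfbp4 ratio to satellite cells (-0.60) no longer passed. Igfbp2 and Igfbp5 in Schwann cells ranged over the settings that moved them from 158 to 338 CPM and from 2511 to 3996 CPM. Of the shares of cells, 177 moved with the depth of thinning and 83 did not. Igf2 and Igfbp2 had the fewest UMIs of the members, 748 and 493 in the library.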
